A study of Mus musculus with 5 samples.

Results

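The 47 genes described here encode postsynaptic scaffold proteins and the adhesion molecules that join the presynaptic and postsynaptic membranes. They were chosen by symbol, and all 47 matched an Ensembl gene identifier among the 55471 of the deposited count table. Poly(A) RNA of the spinal cord was sequenced from 2 Lhx1os knockout (KO, Lhx1os -/-) and 3 wild-type (WT, Lhx1os +/+) mice, 1 library each. The targeted gene, Lhx1os, makes a long non-coding RNA and lies beside the homeobox gene Lhx1. The KO mice carry a CRISPR insertion, placed with 1 guide RNA in the second exon, of a synthetic poly(A) signal followed by MAZ repeats that destabilise the polymerase. All mice were male C57BL/6J of 3 months, labelled as resting. The number of founder lines and the litters were not given in the sources used here, so p-values measure the spread between these samples.

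Excitatory synapses hold a dense protein network under the postsynaptic membrane. MAGUK proteins such as PSD-95 bind receptors and adhesion proteins, SAPAP proteins bind the MAGUKs, Shank proteins bind SAPAPs, and Homer proteins tie Shanks to group I metabotropic glutamate receptors. Across the cleft, presynaptic neurexins and LAR-type phosphatases bind postsynaptic partners that include neuroligins, leucine-rich repeat proteins and, through secreted cerebellins, delta-type glutamate receptors. In the spinal cord these proteins are found at the contacts that sensory fibres, interneurons and descending axons make on dorsal horn neurons and motor neurons.

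Depth was similar across the libraries. They held 15973063 and 16384033 assigned reads in KO and between 16086041 and 19437533 in WT, and the TMM scaling factors spanned 0.982 to 1.01. The targeted gene Lhx1os had 13 and 11 reads in the KO libraries, against 56, 66 and 51 in the WT libraries, a log2 fold change of -2.13 (SE 0.28). Its adjusted p was 0.0589 (edgeR's quasi-likelihood test with Benjamini-Hochberg adjustment, threshold 0.05), and it passed, at 0.0281, where transcript GC content was adjusted for. Levels are given as CPM, assigned reads scaled by library size and TMM factor. WT replicate 2 stood apart in 4 of the 5 markers of sensory ganglion neurons. Scn10a, a sodium channel gene of nociceptors, had 2 and 1 reads in the KO libraries, against 2, 306 and 2 reads in the WT libraries, and Avil had 1 and 7 reads in KO, against 5, 196 and 7 reads in WT. Prdm12 had 45 and Trpv1 27 reads in WT replicate 2, against at most 5 in any other library, while Calca had 27.9 CPM there, inside the range of the other libraries. The members' counts are therefore given with and without that library. Summed pan-neuronal markers were 7863.1 and 7748.9 CPM in KO, against 7743.9, 7406.8 and 7262.7 CPM in WT. Of the 10 markers, 9 had log2 fold changes above 0 with 0 passing the test, against 51.3% of all genes above 0. Those of Elavl4 and Map2 rounded to 0.0. Both KO libraries lay above all WT libraries for 3 of the 10, against 12.9% of all genes. The oligodendrocyte markers summed to 31711.5 and 31421.8 CPM in KO and to 35560.7, 30214.1 and 33279.2 CPM in WT. Caudal Hox genes, which mark lumbar and sacral levels, summed to 6.56 and 59.8 CPM in KO and to 9.1, 6.95 and 27.7 CPM in WT, so the libraries differed in this marker of cord level within each genotype. The part of the neuronal, oligodendrocyte and Hox values in the members' values was not tested. The forebrain marker Emx1 had 0 reads in all libraries.

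None of the 47 members passed the test between KO and WT cord (adjusted p under 0.05, edgeR, over 16052 genes), against 0.0187% of all genes tested. The smallest adjusted p was 0.621, for Lrfn1. The log2 fold changes, KO over WT, lay between -0.27 for Cbln4 and 0.31 for Lrfn1. The 95% interval of the change lay within 1.5-fold in either direction for 46 members and within 1.25-fold for 31. Nptx2 was the exception, with an interval of -0.30 to 0.70 on the log2 scale. The estimate was above 0 for 27 members and below 0 for 20, and 51.3% of all genes tested were above 0. The median log2 fold change was 0.04 for the members and 0.004 for all genes. The median absolute change was 0.087 for the members and 0.098 for all genes. All 47 members passed the filter on low counts, with 101 to 16188 reads per member and library, and the standard errors of the log2 fold changes ran from 0.06 to 0.22. In RNA from whole cord, fewer cells of a type and less RNA per cell cannot be told apart.

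**Figure D1:**
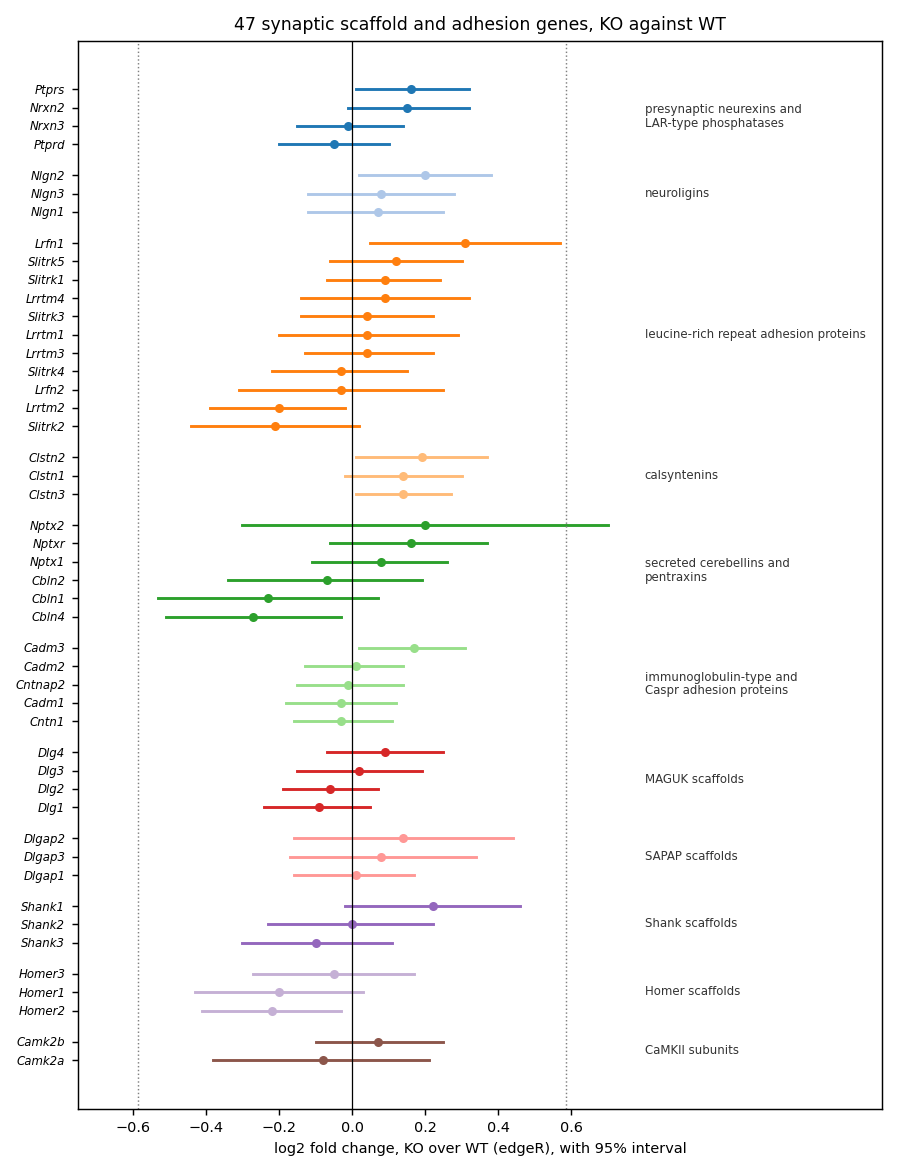
Log2 fold change, KO over WT, of the 47 members grouped by role, with 95% intervals from edgeR (2 KO and 3 WT libraries); dotted lines mark 1.5-fold. The estimates lie between -0.27 and 0.31, and the interval of Nptx2 alone crosses a dotted line.

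At an unadjusted p under 0.05, 9 members stood out, or 19.1% of the 47, against 7.57% of all genes tested. They were Lrfn1, Cadm3, Nlgn2, Ptprs, Clstn2 and Clstn3 with higher estimates in KO (3.49% of all genes), and Homer2, Cbln4 and Lrrtm2 with lower ones (4.07% of all genes). The KO and WT libraries did not overlap for 16 members (34.0%), against 24.9% of all genes tested. KO lay above WT for 9 of these 16 and below it for 7, against 12.9% above and 12% below among all genes. Both shares of the members were above those of all genes, without an adjusted p under the threshold. With WT replicate 2 left out, 0 members passed the test (edgeR), against 0.00629% of all genes, while 15 members had an unadjusted p under 0.05, against 10.2% of all genes, and 28 had groups that did not overlap, against 41.9%. Without WT replicate 3, 1 of the 47 members had an unadjusted p under 0.05, against 4.9% of all genes, and without KO replicate 1 it was 1, against 4.82%, so the members' excess was not seen with either library left out.

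Without WT replicate 2, 32 members had higher and 15 lower estimates in KO, and the median was 0.08 on the log2 scale. The estimates of Cbln4 (-0.266), Homer2 (-0.241) and Lrrtm2 (-0.232) stayed near those from all libraries. Larger estimates were those of Lrfn1 (0.443), Nptx2 (0.455), Shank1 (0.356), Dlgap3 (0.229), Nptx1 (0.162), Camk2b (0.156) and Dlg4 (0.148). Shank3 moved to -0.004.

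**Figure D2:**
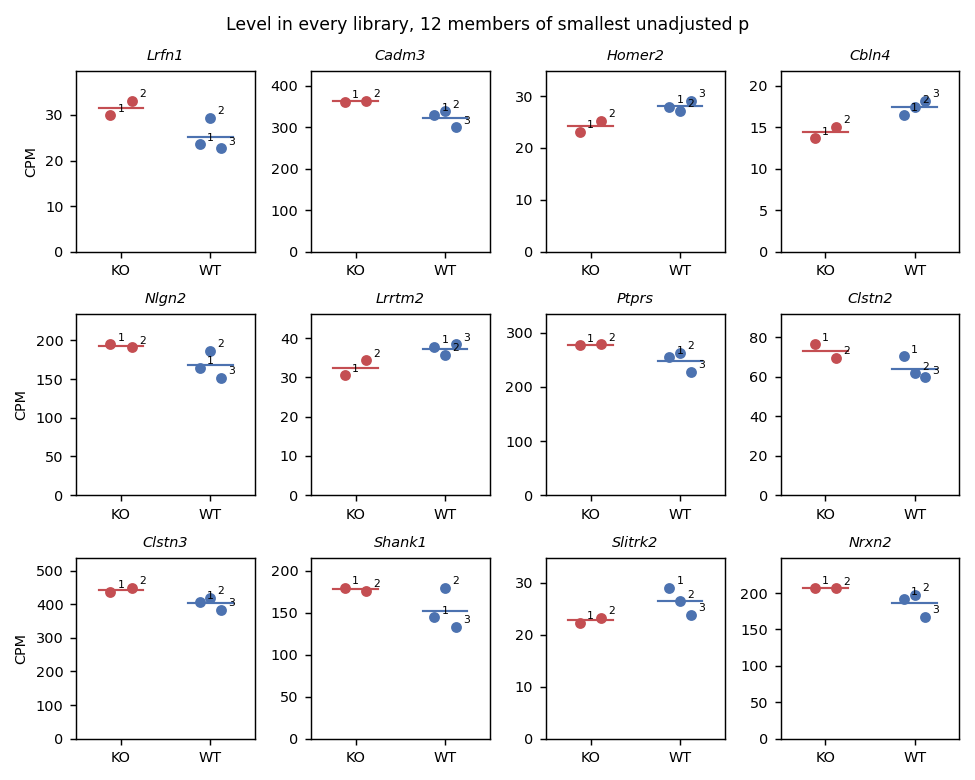
Level (CPM) in each KO and WT library for the 12 members with the smallest unadjusted p; numbers beside the points are replicate numbers and bars are group means. For most of the members with the higher KO mean, WT replicate 2 is the WT library nearest to the KO libraries.

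The members covered a wide range of transcript levels, given here as the mean CPM per kilobase of merged exon over the 5 libraries. Clstn1, a calsyntenin that links vesicle cargo to kinesin, was highest at 169.0 ± 13.4 CPM per kb (SD, n = 5), followed by Clstn3 at 84.3 ± 5.15. The axonal adhesion protein gene Cntn1 (47.6 ± 1.79), Cadm3 (46.7 ± 3.58), the kinase subunit gene Camk2b (41.6 ± 3.19) and Nptx1 (40.2 ± 3.21) came next. Cntn1 and Cadm3 differed by less than their spread, as did Camk2b and Nptx1. Nlgn2 followed at 30.7 ± 3.24 CPM per kb. The lowest members were Homer1 at 2.02, Dlgap2 at 2.07 and Homer2 at 2.10 CPM per kb, whose order cannot be read from so small a difference. Using the longest transcript in place of merged exons kept 9 of the 10 highest members, and it raised Camk2b to 91.9 CPM per kb. Homer1 then had 4.23 CPM per kb (rank 39), and Homer2 (2.41), Nlgn3 (2.8) and Dlgap2 (2.83) were the lowest.

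**Figure D3:**
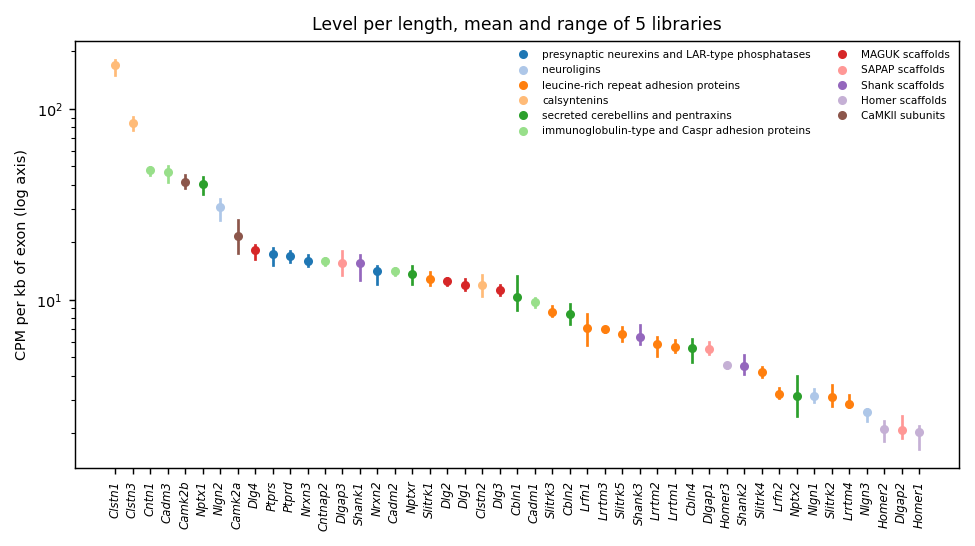
Mean level of each member in CPM per kb of merged exon (log axis), with the range over the 5 libraries. Clstn1 and Clstn3 are the highest members, and Homer1, Dlgap2 and Homer2 the lowest by merged exon length.

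The presynaptic group holds the neurexins Nrxn2 and Nrxn3 and the LAR-type receptor phosphatases Ptprd and Ptprs, all of which bind several postsynaptic partners. None of the 4 passed the test, and their levels were close together, between 14.1 and 17.4 CPM per kb. Ptprs (chromosome 17, 56412426 to 56476483, minus strand, GRCm38) had 277.0 and 278.7 CPM in the KO libraries, against 254.7, 262.8 and 227.5 CPM in the WT libraries. Both KO libraries lay above all WT libraries, and the log2 fold change was 0.16 (SE 0.07, 95% interval 0.01 to 0.32, edgeR adjusted p = 0.653). Nrxn2 had 207.1 and 206.3 CPM in KO, against 192.4, 197.4 and 167.5 CPM in WT. It did not overlap either, with a log2 fold change of 0.15 (SE 0.07, edgeR adjusted p = 0.684). The paralogs did not stand apart by genotype: Nrxn3 had 204.4 and 199.1 CPM in KO and 216.8, 200.6 and 190.7 CPM in WT, and Ptprd, the phosphatase that binds Il1rap and Slitrk proteins, had a log2 fold change of -0.05 (95% interval -0.20 to 0.10).

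Neuroligins are the postsynaptic receptors of neurexins, and Nlgn2 serves inhibitory synapses. Nlgn2 was the most abundant of the 3 neuroligins measured here, at 30.7 CPM per kb against 3.12 for Nlgn1 and 2.58 for Nlgn3. Exons of Nlgn3 share 3823 bases with Gm21986 on the same strand. Those of Nlgn1 share 1229 bases with A830092H15Rik on the opposite strand, and reads there cannot be assigned with certainty. Nlgn2 had 194.8 and 190.8 CPM in the KO libraries, against 164.5, 186.6 and 151.6 CPM in the WT libraries. The KO libraries lay above the WT libraries, WT replicate 2 coming close, and the log2 fold change was 0.20 (SE 0.08, 95% interval 0.02 to 0.38, edgeR adjusted p = 0.644). Nlgn1, the neuroligin of excitatory synapses, had a log2 fold change of 0.07 (SE 0.08). Nlgn3 had 24.8 and 24.7 CPM in KO, against 24.6, 24.1 and 21.5 CPM in WT. Its libraries did not overlap, by a small step over WT replicate 1, and its log2 fold change of 0.08 was within its SE of 0.09.

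The leucine-rich repeat group had 11 members in 3 families, 7 with higher and 4 with lower estimates in KO, and none passed the test. Lrfn1 (chromosome 7, 28451980 to 28468242, plus strand, GRCm38) encodes an adhesion protein that binds PSD-95. It had 29.9 and 33.1 CPM in the KO libraries, against 23.6, 29.4 and 22.7 CPM in the WT libraries, with means of 31.5 ± 2.26 in KO and 25.2 ± 3.65 in WT (SD, n = 2 and 3). KO replicate 1 exceeded WT replicate 2 by a narrow margin, and the log2 fold change was 0.31 (SE 0.12, 95% interval 0.05 to 0.57, edgeR adjusted p = 0.621). Its paralog Lrfn2 had 9.94 and 10.2 CPM in KO, against 10.1, 11.0 and 9.79 CPM in WT, and its groups overlapped.

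Lrrtm proteins bind neurexins or heparan sulphate proteoglycans from the postsynaptic side. Lrrtm2 had 30.5 and 34.3 CPM in the KO libraries, against 37.7, 35.7 and 38.4 CPM in the WT libraries. Both KO libraries lay below all WT libraries (log2 fold change -0.20, SE 0.08, 95% interval -0.39 to -0.02, edgeR adjusted p = 0.644). The other Lrrtm genes had log2 fold changes of 0.04 (Lrrtm1), 0.04 (Lrrtm3) and 0.09 (Lrrtm4). Slitrk proteins bind the LAR-type phosphatases. Slitrk1 was the most abundant of the leucine-rich repeat group at 12.9 ± 0.742 CPM per kb (SD, n = 5), with 75.3 and 68.2 CPM in KO and 69.7, 68.5 and 64.2 CPM in WT. Slitrk2 had 22.3 and 23.3 CPM in the KO libraries, against 29.0, 26.4 and 23.8 CPM in the WT libraries. Its KO libraries were below the WT libraries, by little below WT replicate 3 (log2 fold change -0.21, SE 0.10, edgeR adjusted p = 0.682). Slitrk3, Slitrk4 and Slitrk5 had log2 fold changes of 0.04, -0.03 and 0.12.

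All 3 calsyntenins, which are cadherin-type transmembrane proteins, had higher estimates in KO, and none passed the test. Clstn3 had 437.4 and 448.6 CPM in the KO libraries, against 405.5, 418.8 and 384.1 CPM in the WT libraries. The groups did not overlap, and the log2 fold change was 0.14 (SE 0.06, 95% interval 0.01 to 0.27, edgeR adjusted p = 0.657). Clstn1 had 835.4 and 838.8 CPM in KO, against 750.3, 826.9 and 699.2 CPM in WT. WT replicate 2 came within a few CPM of KO, and the log2 fold change was 0.14 (SE 0.07, edgeR adjusted p = 0.707). Clstn2 had 76.4 and 69.6 CPM in KO, against 70.3, 61.8 and 59.7 CPM in WT. Its groups overlapped, with a log2 fold change of 0.19 (SE 0.08, edgeR adjusted p = 0.657).

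The secreted proteins split by family in the sign of their estimates alone. The 3 cerebellins had lower estimates in KO, and the 2 pentraxins and their receptor Nptxr higher ones, with none passing the test. The sign was not settled for Cbln2 and Nptx2, whose estimates lay within their SE, and Nptx2 had -0.053 without KO replicate 2. Cbln4 (chromosome 2, 172036233 to 172043466, minus strand, GRCm38) had 13.7 and 15.1 CPM in the KO libraries, against 16.5, 17.5 and 18.2 CPM in the WT libraries. Both KO libraries lay below all WT libraries, with means of 14.4 ± 1.03 in KO and 17.4 ± 0.844 in WT (SD, n = 2 and 3) and a log2 fold change of -0.27 (SE 0.11, 95% interval -0.51 to -0.03, edgeR adjusted p = 0.640). Cbln1 encodes a protein that bridges neurexins and delta-type glutamate receptors, and it had 26.9 and 30.6 CPM in KO, against 29.3, 40.5 and 31.2 CPM in WT. Its groups overlapped, and WT replicate 2 stood above the others (log2 fold change -0.23, SE 0.13, edgeR adjusted p = 0.726, and -0.072 without that library). Cbln2 had a log2 fold change of -0.07 (SE 0.12).

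Neuronal pentraxins cluster AMPA receptors. Nptx1 had 210.6 and 222.7 CPM in the KO libraries, against 200.2, 228.5 and 187.2 CPM in the WT libraries, and the KO values lay inside the WT range. Nptx2, whose transcription follows neuronal activity, was the most variable member, with a coefficient of variation of 27.0% among the WT libraries. It had 7.30 and 10.1 CPM in KO, against 6.49, 9.86 and 6.22 CPM in WT, and a log2 fold change of 0.20 (SE 0.22). Nptxr, the membrane-anchored pentraxin, had 74.2 and 77.0 CPM in KO, against 62.4, 77.8 and 62.9 CPM in WT.

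Among the immunoglobulin-type and Caspr proteins, Cadm3 had the second smallest p of the members. Cadm3, an axonal member of the SynCAM family, had 360.9 and 363.2 CPM in the KO libraries, against 329.8, 337.5 and 299.8 CPM in the WT libraries. Both KO libraries lay above all WT libraries, with a log2 fold change of 0.17 (SE 0.06, 95% interval 0.02 to 0.31, edgeR adjusted p = 0.626). Cadm3 lies on chromosome 1, 173333258 to 173367695, minus strand (GRCm38), and its exons share 361 bases with Ackr1 on the same strand. Cntn1, part of the complex that joins axon and glia beside the nodes of Ranvier, had 445.9 and 441.8 CPM in KO, against 462.3, 426.2 and 468.6 CPM in WT. Its interval was narrow, from -0.16 to 0.11. Cntnap2, which gathers potassium channels along myelinated axons, had a log2 fold change of -0.01, and Cadm1 and Cadm2 had -0.03 and 0.01.

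The MAGUK scaffolds differed little between the genotypes. Dlg4, which encodes PSD-95, had 254.0 and 249.1 CPM in the KO libraries, against 237.4, 256.0 and 216.7 CPM in the WT libraries. The groups overlapped, and the log2 fold change was 0.09 (95% interval -0.07 to 0.25). Dlg1 had 120.4 and 126.1 CPM in KO, against 127.6, 128.3 and 139.0 CPM in WT. Its KO libraries were below the WT libraries by a small step, with a log2 fold change of -0.09 (95% interval -0.24 to 0.05). Dlg2 had 194.9 and 203.8 CPM in KO, against 201.2, 211.4 and 211.8 CPM in WT, and Dlg3 had 62.3 and 69.6 CPM in KO, against 62.2, 69.4 and 63.5 CPM in WT. Of the SAPAP genes, Dlgap3 was the most abundant at 15.6 ± 1.92 CPM per kb (SD, n = 5). Dlgap3 had 76.7 and 69.4 CPM in KO, against 64.2, 81.5 and 60.5 CPM in WT, with the KO values inside the WT range. Dlgap1 and Dlgap2 had log2 fold changes of 0.01 and 0.14.

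The Shank genes had 1 higher and 2 lower estimates, and none passed the test. Shank1 had 179.3 and 175.9 CPM in the KO libraries, against 144.5, 179.4 and 133.2 CPM in the WT libraries. WT replicate 2 matched the KO libraries while the other WT libraries lay lower (log2 fold change 0.22, SE 0.11, edgeR adjusted p = 0.682). Shank3 had 55.1 and 57.4 CPM in KO, against 59.1, 67.5 and 53.7 CPM in WT, and a log2 fold change of -0.10 (SE 0.09, edgeR adjusted p = 0.823). Shank2 had 48.6 and 47.5 CPM in KO, against 45.1, 55.3 and 43.9 CPM in WT. The share of each paralog in the family was also compared. Shank1 made up 61.9% and 61.1% of the family's CPM per kb in the KO libraries, against 56.4%, 57.7% and 56.1% in the WT libraries. Shank3 made up 21.8% and 22.8% in KO, against 26.4%, 24.9% and 25.9% in WT. The difference in the Shank1 share was 4.74 percentage points, larger than the SD of 0.564 in KO and 0.892 in WT, with p = 0.2 in an exact two-sided permutation test, the smallest that 3 against 2 libraries allow, and 0.8 after adjustment over the 4 families tested. With 1 library left out, the difference lay between 4.34 and 5.24 percentage points. Shank1 and Shank3 are alike in transcript GC content (61.4% and 62.4%), and Shank2 is lower. The shares were not computed with transcript GC content adjusted for, so its part in the Shank1 share was not tested.

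**Figure D4:**
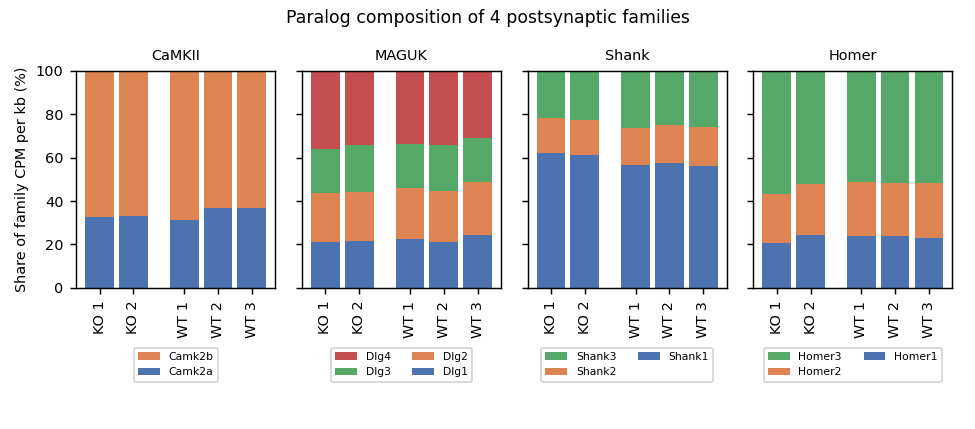
Share of each paralog in its family's summed CPM per kb (%) in each KO and WT library, for the CaMKII, MAGUK, Shank and Homer families. The Shank1 share is 61.1% to 61.9% in KO libraries and 56.1% to 57.7% in WT libraries.

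In the Homer family KO lay below WT for all 3 members in the counts as deposited, and none passed the test. The margins were narrow for Homer1 and Homer3, and the Homer3 estimate lay within its SE. The share of all genes with KO below WT is given above, and whether the family differs from it was not tested. Homer2 had 23.1 and 25.2 CPM in the KO libraries, against 27.9, 27.2 and 29.1 CPM in the WT libraries, with means of 24.1 ± 1.51 in KO and 28.1 ± 0.959 in WT (SD, n = 2 and 3). Its log2 fold change was -0.22 (SE 0.09, 95% interval -0.41 to -0.03, edgeR adjusted p = 0.640). Homer1, whose short activity-induced form lacks the coiled coil of the long forms, had 19.9 and 24.4 CPM in KO, against 25.6, 25.9 and 24.8 CPM in WT. The groups were separated by a narrow gap at KO replicate 2 (log2 fold change -0.20, SE 0.10, edgeR adjusted p = 0.707), and the gene counts do not tell the forms apart. The Homer1 estimate rested on KO replicate 1, with a log2 fold change of -0.062 without it and of -0.355 without KO replicate 2, and its groups overlapped with the GC offset (-0.12). Homer3 had 15.7 and 15.1 CPM in KO, against 15.7, 16.1 and 16.0 CPM in WT, so KO replicate 1 and WT replicate 1 were equal at this rounding. Exons of Homer3 share 874 bases with Ddx49 on the opposite strand. Homer3 took the largest share of the family per length, 56.7% and 52.0% in KO against 51.2%, 52.0% and 51.5% in WT. The Homer1 share did not differ by genotype beyond its spread (exact two-sided permutation test, p = 0.8).

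The promoters of the 3 Homer genes run from 250 bases before to 50 after the RefSeq start nearest the gene start (GRCm38.p6). They are shown because this family's members had the same order of KO and WT in the counts as deposited. That order rested on a near tie for Homer3 and on a narrow gap for Homer1, so it is not a result for the family. Capitals mark TGACG, the core of the cyclic AMP response element, searched on both strands, where it reads CGTCA on the other strand.
Homer1: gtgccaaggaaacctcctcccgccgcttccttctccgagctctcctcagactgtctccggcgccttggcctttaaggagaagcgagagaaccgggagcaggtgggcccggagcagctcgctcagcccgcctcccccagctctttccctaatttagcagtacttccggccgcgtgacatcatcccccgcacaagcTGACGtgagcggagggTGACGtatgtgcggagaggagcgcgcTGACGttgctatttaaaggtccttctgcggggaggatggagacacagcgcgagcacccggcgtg
Homer2: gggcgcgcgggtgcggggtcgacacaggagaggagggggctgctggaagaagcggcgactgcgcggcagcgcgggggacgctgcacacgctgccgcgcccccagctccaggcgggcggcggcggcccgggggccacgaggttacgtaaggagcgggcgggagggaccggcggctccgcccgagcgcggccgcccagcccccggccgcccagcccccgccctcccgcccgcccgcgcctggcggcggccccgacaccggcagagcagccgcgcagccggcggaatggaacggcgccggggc
Homer3: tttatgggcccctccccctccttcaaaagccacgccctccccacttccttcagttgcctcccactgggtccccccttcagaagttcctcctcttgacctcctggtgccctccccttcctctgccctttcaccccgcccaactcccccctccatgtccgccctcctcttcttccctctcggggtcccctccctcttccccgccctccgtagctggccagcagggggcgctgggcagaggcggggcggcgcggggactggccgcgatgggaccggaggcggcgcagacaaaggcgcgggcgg
They lie at chr13:93303507-93303806 (plus strand), chr7:81706876-81707175 (minus strand) and chr8:70282749-70283048 (plus strand). Homer1 held 3 matches and the other promoters held 0, and 20.8% of the 32851 RefSeq promoters of the same length held at least 1. All 3 were rich in CG dinucleotides, with 26 in Homer1, 49 in Homer2 and 19 in Homer3, against a median of 7 over all promoters. Their GC content was 63.0%, 82.3% and 69.7%, against a median of 52.7%. A match is a description of the letters in this window only.

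Of the CaMKII subunits, Camk2b had 377.7 and 403.7 CPM in the KO libraries, against 351.0, 413.1 and 350.2 CPM in the WT libraries. Camk2a, the subunit that dominates in forebrain, had 149.4 and 161.8 CPM in KO, against 131.3, 195.9 and 166.7 CPM in WT. The KO values of both genes lay inside the WT ranges, and the WT coefficient of variation of Camk2a was 19.6%. Per kilobase, Camk2b was the more abundant subunit in all 5 libraries. Camk2a made up 32.6% and 32.9% of the pair in KO, against 31.4%, 36.7% and 36.8% in WT (exact two-sided permutation test, p = 0.6). The Dlg4 share of the MAGUK family was 36.2% and 34.2% in KO, against 33.9%, 34.4% and 30.8% in WT (exact two-sided permutation test, p = 0.4).

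The members' estimates ran with the GC content of their transcripts, which spans 34.7% in Slitrk4 to 63.9% in Dlgap3. Of the 17 members with at least 55% GC, 13 had higher and 4 had lower estimates in KO. Their median was 0.14 on the log2 scale, against 0.07 over the 3868 genes of that class. Of the 15 members under 45% GC, 4 had higher and 11 had lower estimates, with a median of -0.03, against -0.06 over 3876 genes. Across members, Spearman's rho between GC content and log2 fold change was 0.511 (n = 47), and across all genes with a GC value it was 0.292 (n = 16037). These are correlations across genes that share the same 5 libraries. The slope was not a split by genotype alone. Across members, rho between GC content and a library's deviation from the mean was 0.28 and 0.582 in the KO libraries and -0.596, 0.456 and -0.667 in the WT libraries, so WT replicate 2 ran with the KO libraries. WT replicate 3 was the lowest library for 28 of the 47 members, and WT replicate 2 the highest for 17.

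**Figure D5:**
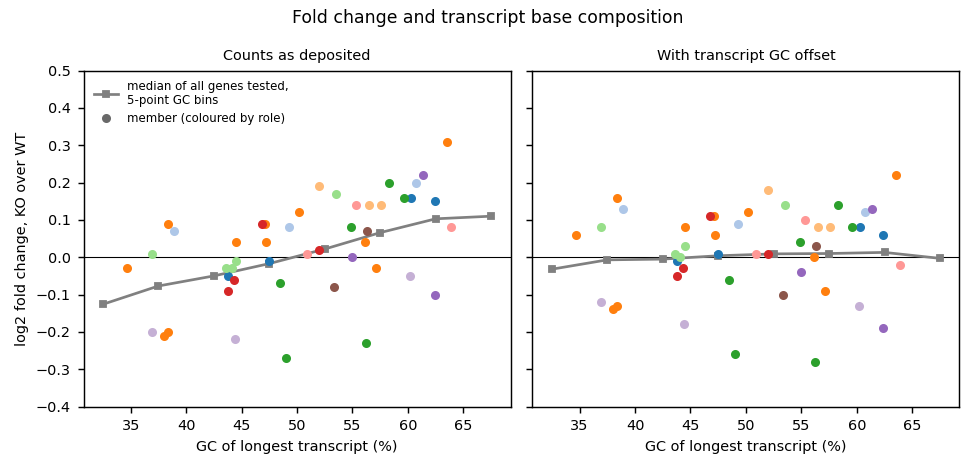
Log2 fold change, KO over WT, of the 47 members against transcript GC content (%), from the counts as deposited and with a GC offset per library; the grey line is the median of all genes in bins of 5 percentage points. Spearman's rho over the members is 0.511 in the first panel and 0.13 in the second.

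With an offset fitted per library on transcript GC, an alternative added after the data were seen, none of the members passed the test, against 0.0748% of all genes, and the smallest adjusted p of a member was 0.75. The offset removes any genotype difference that runs with GC, whatever its source. Members at an unadjusted p under 0.05 numbered 4, or 8.51%, against 5.92% of all genes. Lrfn1 (log2 fold change 0.22) and Cbln4 (-0.26) were in both sets, while Cbln1 (-0.28) and Shank3 (-0.19) were in the second alone. The groups did not overlap for 15 members, against 21.4% of all genes. Homer2 had -0.18, Lrrtm2 -0.13, Nlgn2 0.12, Ptprs 0.08, Clstn3 0.08, Cadm3 0.14 and Clstn2 0.18 with the offset. Of the 47 members, 28 lay nearer 0 with the offset than without it.

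Of 56 further adhesion genes, 0 passed the test (edgeR), against 0.0187% of all genes tested. An unadjusted p under 0.05 was found for 5 higher and 2 lower in KO, against 3.49% and 4.07% of all genes. Estimates were higher in KO for 36 of the 56 and lower for 20, against 51.3% of all genes above 0. The log2 fold changes of the 56 had a median of 0.05. Il1rap, a partner of Ptprd, had the smallest p of that list, with 62.8 and 60.9 CPM in the KO libraries, against 74.4, 72.4 and 78.6 CPM in the WT libraries (log2 fold change -0.28, SE 0.07, edgeR adjusted p = 0.339). Nectin1 had 39.3 and 35.7 CPM in KO, against 28.5, 31.4 and 25.8 CPM in WT (0.39, SE 0.10, edgeR adjusted p = 0.391). The ephrin receptor gene Epha4 had 50.5 and 50.9 CPM in KO, against 43.0, 41.1 and 43.8 CPM in WT (0.25, SE 0.07, edgeR adjusted p = 0.456). The teneurin gene Tenm4, whose family binds latrophilins, had 160.4 and 156.9 CPM in KO, against 134.2, 142.3 and 124.1 CPM in WT (0.25, SE 0.07, edgeR adjusted p = 0.464). Each of these 4 genes, picked for the smallest p, had KO and WT libraries that did not overlap. Of the 56, KO lay above WT for 12 and below it for 6, against 12.9% and 12% of all genes tested.

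Of 34 further postsynaptic density and inhibitory scaffold genes, 0 passed the test (edgeR), against 0.0187% of all genes tested. An unadjusted p under 0.05 was found for 2 higher and 1 lower in KO, against 3.49% and 4.07% of all genes. Estimates were higher in KO for 26 of the 34 and lower for 8, against 51.3% of all genes above 0. The log2 fold changes of the 34 had a median of 0.04. Arc, an activity-regulated gene that promotes AMPA receptor endocytosis, had 36.7 and 37.8 CPM in the KO libraries, against 29.7, 33.0 and 28.6 CPM in the WT libraries (log2 fold change 0.29, SE 0.09, edgeR adjusted p = 0.508). Lrrc7, which encodes the scaffold densin, had 12.9 and 13.6 CPM in KO, against 15.9, 17.0 and 15.7 CPM in WT (-0.29, SE 0.11, edgeR adjusted p = 0.620). The MAGUK gene Mpp3 had 20.2 and 20.5 CPM in KO, against 15.5, 17.6 and 18.2 CPM in WT (0.25, SE 0.10, edgeR adjusted p = 0.644). Arc, Lrrc7 and Mpp3, picked for their small p, had libraries that did not overlap. Of the 34, KO lay above WT for 4 and below it for 3, against 12.9% and 12% of all genes tested. The gene of the actin regulator Baiap2 had 25.8 and 30.7 CPM in KO, against 28.7, 37.3 and 34.2 CPM in WT, and its groups overlapped (-0.24, SE 0.12, edgeR adjusted p = 0.694).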

How the data were processed

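Illumina TruSeq Stranded mRNA libraries of mouse spinal cord were analysed. The deposited table holds read counts per gene (GRCm38); cutadapt, Trimmomatic, STAR 2.5.2b and HTSeq are named in the submitters' processing notes. Neither the annotation release nor whether reads were counted by strand was given in the sources used here. Reads of 13 members with exon overlap on the opposite strand, and 4 on the same strand, cannot be assigned with certainty. Of 55471 identifiers, 55230 matched GENCODE M21.

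Groups follow the titles. KO was compared with WT on the deposited counts with edgeR 4.0.16 (R 4.3.3), TMM scaling, filterByExpr (minimum count 10, total 15) and the quasi-likelihood test, with Benjamini-Hochberg adjustment over 16052 genes and a threshold of 0.05. Variation between replicates, as the common BCV, was 7.48%. CPM is TMM-scaled, and CPM per kb divides it by merged exon length. Fits were tested on simulated data. DESeq2 1.42.0, limma 3.58.1 and other settings were alternatives.

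Members and lists (further synaptic genes, cell type markers) were chosen with earlier results of these data known. Values per library are given for the 12 members of smallest p, the most abundant of each role, the 3 most variable in WT, the 4 families tested for shares, and the 4 genes of smallest p in each list of further synaptic genes. GC content is that of the longest protein-coding transcript. Spearman correlations across genes carry no p. The marker lists had 0 genes passing the test in the edgeR fit. Median log2 fold changes were -0.03 for excitatory and inhibitory neurons, 0.23 for motor neurons, -0.12 for astrocytes and -0.01 for oligodendrocytes. They were -0.22 for oligodendrocyte precursors, -0.07 for microglia, 0.06 for endothelium and -0.42 for meningeal fibroblasts. Schwann cells had -0.05, skeletal muscle 1.17 and rostral Hox genes -0.11. The skeletal muscle counts were low and highest in KO replicate 1, with sums of 11.5 and 4.13 CPM in KO, against 3.93, 3.88 and 2.03 CPM in WT. The motor neuron sums overlapped, with 330.5 and 230.0 CPM in KO, against 303.5, 190.8 and 208.9 CPM in WT. Of the forebrain list 2 of 5 genes passed the filter on low counts (median -0.34). Of the sensory ganglion list 1 of 5 genes, Calca, passed the filter on low counts (0.31).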

Additional observations from a re-analysis of the deposited data

How the results depend on the processing

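None of the 47 members, and none of the further synaptic genes, passed the test in any of the 13 alternatives. The members' smallest adjusted p was between 0.248 (without WT replicate 2, Shank1) and 1.0 (DESeq2). The count over all genes, 3, was 6 with DESeq2 size factors, 96 with no filter on low counts, 40 with DESeq2, 1 with limma-voom, 12 with robust dispersion, 12 with the transcript GC offset, and 0 to 58 with 1 library left out. Members whose groups did not overlap numbered 16, and 17 to 28 with 1 library left out. Without WT replicate 2 that count was 28, against 41.9% of all genes, and without KO replicate 2 it was 26. The share of all genes without overlap, given above for all libraries, was also higher without WT replicate 2. It was not computed with any other library left out. The other counts therefore cannot be read as a rise particular to the members. Members at an unadjusted p under 0.05, 9 in all libraries, numbered 1 to 15 with 1 library left out, against 4.82% to 10.2% of all genes, the highest being without WT replicate 2. With DESeq2 they numbered 6, all with higher estimates in KO, against 2.66% of all genes. That share was taken over 25742 genes, without the filter on low counts that the members pass. It is therefore not like the shares over filtered genes. With the GC offset, Lhx1os and the oligodendrocyte precursor marker Gpr17 passed, with adjusted p (edgeR) of 0.0281 and 0.0331, against 0.0589 and 0.0603 without it. Gpr17 then had a log2 fold change of -0.64. The other precursor markers did not pass, with -0.45 (Neu4), -0.21 (Pdgfra), 0.07 (Olig1) and -0.06 (Cspg4). The members' median log2 fold change stayed between 0.002 and 0.080 with 1 library left out. Small estimates changed sign with 1 library left out: Dlg3 (0.019) ran from -0.064 to 0.095, Camk2a (-0.083) from -0.222 to 0.063, Shank2 (-0.005) from -0.070 to 0.111, Dlgap3 (0.085) from -0.002 to 0.229 and Nptx2 (0.202) from -0.053 to 0.455. With the GC offset, Dlgap3 was -0.015 and Cntn1 0.013. The cause was not tested.

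The labels tie same-numbered KO and WT libraries to no shared litter or batch, and with 2 KO libraries the correlations of their deviations, 0.0579 and 0.00203, cannot settle whether they share one. With the replicate block, 0 members and 25 of all genes passed, with 1 residual degree of freedom, and 4 of the 47 members had an unadjusted p under 0.05, against 5.87% of all genes.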
